A study of Mus musculus with 2 samples.

Results

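The Snail, Twist and Zeb genes Snai1, Snai2, Snai3, Twist1, Twist2, Zeb1 and Zeb2 were read in serum-stimulated mouse embryonic fibroblasts. They were chosen by symbol, taking every probe that the array files assign to them, which gave 7 of the 28312 genes on the array and 8 probes. Of the 7 genes, 6 were well above background in all 4 measured channels, as were 17239 genes of the whole array.

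All samples came from immortalized fibroblasts of mixed C57BL/6 x B6:129 Ola background, MEF(Rosa26ERT2 Cre: THOC5 (flox/flox)), in which both the control and the depleted cells carry the floxed THOC5 alleles and a Cre recombinase at the Rosa26 locus that tamoxifen switches on. THOC5 is a subunit of the THO complex, which acts in mRNA processing and export. Control cells received no tamoxifen, and THOC5-depleted cells were treated with it for 2 days. On each of the 2 arrays Cy3 carried the unstimulated cells and Cy5 the same cells after 1 h with fetal calf serum (FCS), and the comparison asks how the serum response depends on THOC5. According to the paper's culture methods, cells were starved of serum before stimulation, so unstimulated here means starved. The cells are a single line and only the depleted cells saw tamoxifen, so an effect of the drug cannot be told apart from loss of THOC5. Each condition had 1 array, and a dye swap was not analysed here, so no test between conditions was possible, and dye effects cannot be told apart from serum effects.

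Snail and Zeb proteins are zinc finger repressors that bind E-boxes, short DNA motifs in the regulatory regions of epithelial genes such as Cdh1, which encodes E-cadherin. Twist proteins are basic helix-loop-helix factors that bind E-boxes together with E proteins. These families drive the epithelial-mesenchymal transition, and several of them are normally active in fibroblasts and their embryonic precursors.

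The sequence read by each probe is given for Snai1, Snai2, Twist1 and Twist2, whose serum responses differed most between the arrays among the brightest probes of the detected members, because every value below is the amount of label bound to that stretch. Each probe is 60 bases long, its first 30 bases are printed from the array files, and they stay in lower case because no part of them is marked.

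Snai1: gtttcacagcagtttaactgtctcagaagg

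Snai2: gtgaggtacggttaatagccacgcctatat

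Twist1: atggtaacaatcagaggaattttaacacct

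Twist2: ttattgagatattttaccagctaagtgact

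On the mm9 build of the files the Snai1 probe lies at chr2:167368073-167368132 on the plus strand, from base 1347 of its transcript. The Snai2 probe lies at chr16:14709361-14709420 on the plus strand, from base 1896. The Twist1 probe lies at chr12:34644411-34644470 on the plus strand, from base 1344, and the Twist2 probe at chr1:93744519-93744577 on the plus strand, from base 1226, an interval of 59 bases in the files where the other probes span 60. Their exon and UTR annotation was not used here. The longest run shared by any of the 28 pairs of member probes was 8 bases, so no probe repeats another.

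The promoter of Snai1 is shown because Snai1 had the largest serum response among the detected members. The RefSeq start site table (GRCm38.p6) gives the 250 bases before its start at chr2:167537945-167538194 on the plus strand, and the capitals mark an E-box, CAGGTG on the minus strand, the motif that Snail proteins themselves bind.

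Snai1 promoter: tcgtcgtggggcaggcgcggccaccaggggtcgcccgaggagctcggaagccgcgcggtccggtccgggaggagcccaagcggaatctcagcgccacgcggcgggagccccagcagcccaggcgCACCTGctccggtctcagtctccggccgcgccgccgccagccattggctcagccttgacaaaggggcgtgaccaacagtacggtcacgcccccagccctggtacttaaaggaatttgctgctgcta

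This E-box begins at position -126 relative to the start site. CAGGTG was found, on either strand, in 17.2% of the 32851 promoter windows of the same length, so a match is common. CANNTG, of which CAGGTG is a case, was found in 66.2% of them. No match to TGANTCA (AP-1, in 6.75% of windows), TGACGTCA (the cAMP response element, in 1.55%) or the CArG box (in 1.47%) lay in this Snai1 window on either strand. The table holds 1 start site each for Snai1, Twist1 and Twist2 and 4 for Zeb2. CANNTG was absent from the 6 windows of Twist1, Twist2 and Zeb2, and 1 of the Zeb2 windows held 2 matches to TGANTCA. A match is a description and no site.

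The labels were checked first with Thoc5 and with cell type markers. Thoc5 was 7.08-fold lower in unstimulated and 5.38-fold lower in stimulated THOC5-depleted cells. Of 12 fibroblast markers, 11 were well above background in all 4 channels, and their summed signal ran from 279742 to 391037. Of 8 epithelial markers 4 were, with a summed signal from 187 to 299, and Cdh1 and Cldn3 were in no channel. Of 5 endothelial markers 3 were, with a summed signal from 890 to 1140 and Tek and Emcn in no channel. Of 6 blood cell markers 2 were, with a summed signal from 636 to 851 and Cd79a in no channel. Among the fibroblast markers 1 was well above background only on the control array, in both channels, so it drops out between the arrays. In unstimulated cells the other 11 could be compared. Of them 7 were below and 4 above 0 in log2 depleted over control, with a median of -0.41. Of these 11, 3 were 2-fold or more lower in depleted cells, against 1.43% of all genes, and 0 were 2-fold higher. The 3 were Fap (3.18-fold), Pdgfra (2.43-fold) and Col3a1 (2.19-fold). In stimulated cells 8 of the 11 were below and 3 above 0, with a median of -0.29. Of them 1 was 2-fold or more lower, Fap (3.45-fold), against 1.67% of all genes. The endothelial marker Cdh5 was 2.17-fold lower there. The part of these marker differences in the results below was not tested. In bulk RNA fewer expressing cells and less RNA per cell cannot be told apart.

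In control cells serum raised Snai1 6.17-fold, while Twist1 and Twist2 had serum ratios of 1.75 and 1.40, Snai2 of 0.595, and Zeb1 and the brighter Zeb2 probe of 0.982 and 1.03. In THOC5-depleted cells the ratios of Snai1, Twist1, Twist2 and Snai2 were 2.21, 1.05, 1.05 and 0.928, each closer to 1 than in control cells. Zeb1 and the brighter Zeb2 probe, at 1.06 and 1.06, lay farther from 1 than in control cells. The log2 ratios of all genes were also less widely spread on the depleted array (interquartile range 0.272, against 0.388 in control cells). Signals are processed intensities, background-subtracted and dye-normalized within an array, and each member probe is 1 spot. The error given for a ratio is the median SD of the log2 ratio over the spots of probes that were printed as 10 spots and had a like signal, which covers spot-to-spot error only and not the spread between cultures.

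Snai1 encodes Snail, the founding repressor of the family. Its signal was 1056 in unstimulated and 6519 in serum-stimulated control cells, and 756 and 1672 in THOC5-depleted cells. The stimulated control cells stood far above the other samples. The serum ratio was 6.17 in control cells (log2 2.63 ± 0.022, spot SD over 77 probes) and 2.21 in depleted cells (log2 1.15 ± 0.024 over 75 probes). The response was thus 2.79-fold smaller on depletion, a log2 difference of -1.48 (spot SD 0.033). Among all genes, Snai1 was the 57th highest of 17787 in control cells, the 113th highest of 17855 in depleted cells and the 66th lowest of 17239 in the difference. When the log2 ratios of both arrays were scaled to the same interquartile range, 0.388 in control and 0.272 in depleted cells before, the response was 1.83-fold smaller and no longer past 2-fold.

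**Figure D1:**
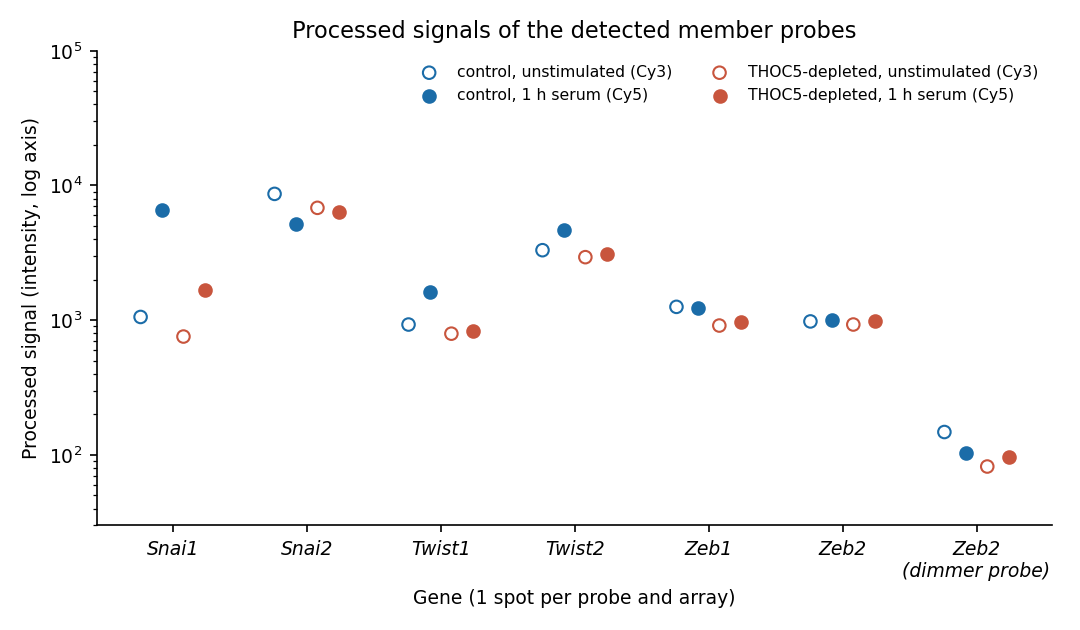
Processed signal (intensity, log axis) of each probe well above background, 1 spot per array; open circles are unstimulated and filled circles serum-stimulated cells, blue for control and red for THOC5-depleted. The filled blue circle of Snai1 (6519) stands above its other 3 signals (756 to 1672). Signals are not scaled between the arrays.

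Twist1 encodes a basic helix-loop-helix factor of mesenchyme and neural crest. Its signal was 928 and 1621 in control cells before and after serum, and 794.0 and 835 in depleted cells. The serum-stimulated control cells were again the highest of the 4. The ratio was 1.75 in control cells (log2 0.80 ± 0.025) and 1.05 in depleted cells (log2 0.07 ± 0.029), a difference of -0.73 (spot SD 0.038). In control cells 3.59% of genes had a higher ratio, in depleted cells 33.7%, and 2.38% of genes had a lower difference.

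Twist2, the closest relative of Twist1, had a signal of 3308 and 4632 in control cells and 2937 and 3094 in depleted cells. As with Twist1, the serum-stimulated control cells were the highest. The ratio was 1.40 in control cells (log2 0.49 ± 0.019) and 1.05 in depleted cells (log2 0.08 ± 0.020). The difference was -0.41 (spot SD 0.028). In control cells 8.19% of genes had a higher ratio, and 7.31% of genes had a lower difference.

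Snai2 encodes Slug, the second Snail family repressor of mesenchymal cells. Its signal was 8661 and 5156 in control cells before and after serum, and 6822 and 6332 in depleted cells. The stimulated signal was 1.68-fold lower in control cells (log2 -0.75 ± 0.018) and 1.08-fold lower in depleted cells (log2 -0.11 ± 0.019), a difference of 0.64 (spot SD 0.026). Its serum ratio thus lay on the other side of 1 from that of Snai1. In control cells 3.18% of genes had a lower ratio, and 3.19% of genes had a higher difference.

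**Figure D2:**
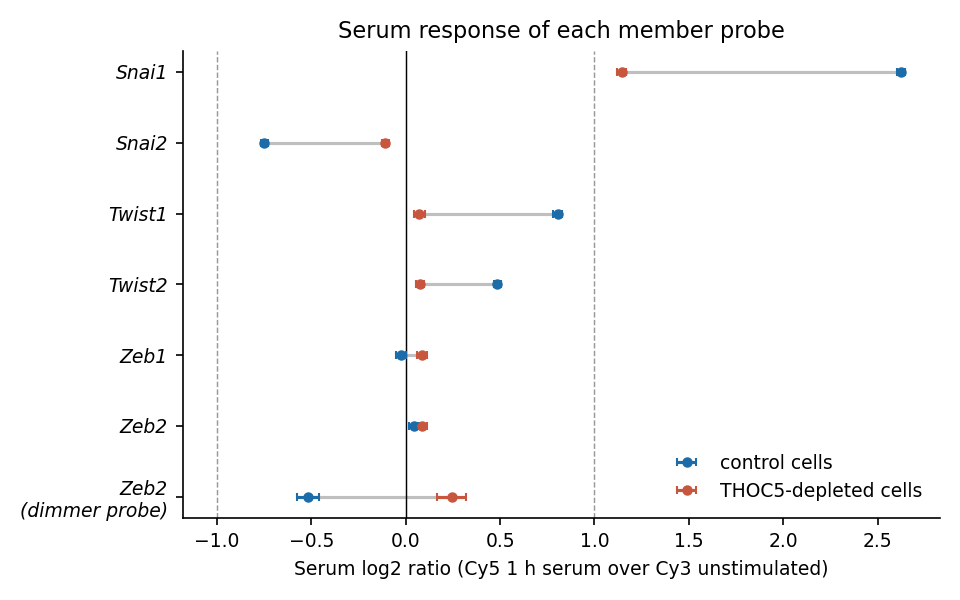
Serum log2 ratio (Cy5 over Cy3) of each probe in control (blue) and THOC5-depleted (red) cells; error bars are the median SD over spots of probes of like signal, and dashed lines mark a 2-fold change. For Snai1, Snai2, Twist1, Twist2 and the dimmer Zeb2 probe the red point lies closer to 0 than the blue point. For Zeb1 and the brighter Zeb2 probe it lies farther from 0.

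Zeb1 encodes a zinc finger and homeodomain repressor, and its probe lies at chr18:5774613-5774672 (mm9). Its signal was 1256 and 1234 in control cells and 912.3 and 968.6 in depleted cells. The ratio was 0.982 in control cells (log2 -0.03 ± 0.025) and 1.06 in depleted cells (log2 0.09 ± 0.027). Among all genes 49.3% had a lower ratio in control cells, so Zeb1 sat in the middle of the array.

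Zeb2, its paralogue, was read by 2 probes that disagreed. The brighter probe, at chr2:44842774-44842833 on the minus strand of mm9 and from base 5433 of the transcript, had a signal of 979 and 1008 in control cells and 928.6 and 984.6 in depleted cells. Its ratios were 1.03 (log2 0.04 ± 0.026) and 1.06 (log2 0.08 ± 0.027), both near no change. The dimmer probe, at chr2:44840038-44840097 and starting 2736 bases further along the transcript, had a signal of 148 and 103 in control cells and 82.0 and 97.1 in depleted cells. Its ratio was 0.698 in control cells (log2 -0.52 ± 0.059) and was 1.18 in depleted cells (log2 0.24 ± 0.077). No single Zeb2 response can therefore be given, and counts use the brighter probe.

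Snai3, the least studied Snail gene, was not well above background in any of the 4 channels. Its signals were 2.71 and 3.51 in control cells and 2.70 and 2.99 in depleted cells, where the lowest signals called well above background were 11.2, 14.0, 11.2 and 12.0. Its ratio was therefore not read as a response.

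Over the 6 detected genes, serum raised 1 past 2-fold in control cells (Snai1), against 2.37% of all genes, and lowered 0, against 1.52%. In depleted cells it raised 1 (Snai1 again), against 0.863% of genes, and lowered 0, against 0.258%. The log2 ratio was lower by 1 or more on depletion for 1 member (Snai1), against 1.16% of genes. It was higher by 1 or more for 0 members, against 0.812%. Both shares rest on the signed difference, so a higher difference can also be a fall that shrank. The median log2 ratio of the members was 0.26 in control cells and 0.08 in depleted cells, beside -0.02 and -0.01 over all genes. With 6 genes these counts are a description. Among genes with all 4 channels detected, 414 rose 2-fold or more in control cells and 131 in depleted cells. The 110 genes on both lists were 26.6% of the first and 84.0% of the second, and Snai1 was among the 46 of them whose response was also 2-fold or more smaller on depletion.

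**Figure D3:**
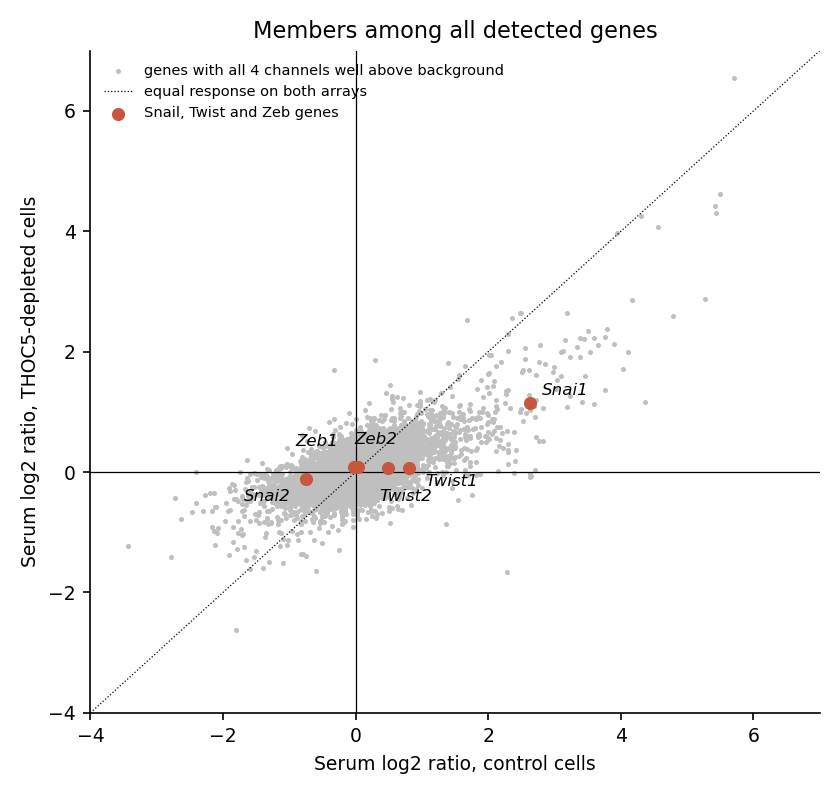
Serum log2 ratio in THOC5-depleted against control cells for the 17239 genes with all 4 channels well above background (grey) and the 6 detected members (red); the dotted line marks equal responses. Snai1 lies at 2.63 and 1.15, to the right of the dotted line.

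Between the arrays, after Aquantile normalization, no detected member was 2-fold apart in unstimulated cells, counting the brightest probe of each gene. The log2 difference, depleted over control, was -0.16 for Snai1, -0.02 for Snai2, 0.05 for Twist1, 0.17 for Twist2, -0.18 for Zeb1 and 0.20 for the brighter Zeb2 probe. These 0 of 6 stand against 1.39% of genes higher and 1.43% lower. The unscaled unstimulated signals of Twist1, Twist2 and the brighter Zeb2 probe were lower in depleted cells, so the sign of these differences rests on the scaling. The dimmer Zeb2 probe was 1.59-fold lower in unstimulated depleted cells (log2 -0.66) and at 0.10 in stimulated cells.

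In serum-stimulated cells Snai1 was 3.11-fold lower in depleted cells (log2 -1.64), the 62nd lowest of 17479 genes, and Twist1 was 1.60-fold lower (log2 -0.68). Snai2 was 1.54-fold higher (log2 0.62), Twist2 1.18-fold lower (log2 -0.24), the brighter Zeb2 probe 1.18-fold higher (log2 0.24) and Zeb1 at -0.06. Thus 1 of the 6 was 2-fold lower, against 1.67% of genes, and 0 were higher, against 1.68%. The differences between the arrays therefore lay in the stimulated channel for Snai1, Snai2 and Twist1, whose unstimulated log2 differences were between -0.16 and 0.05.

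**Figure D4:**
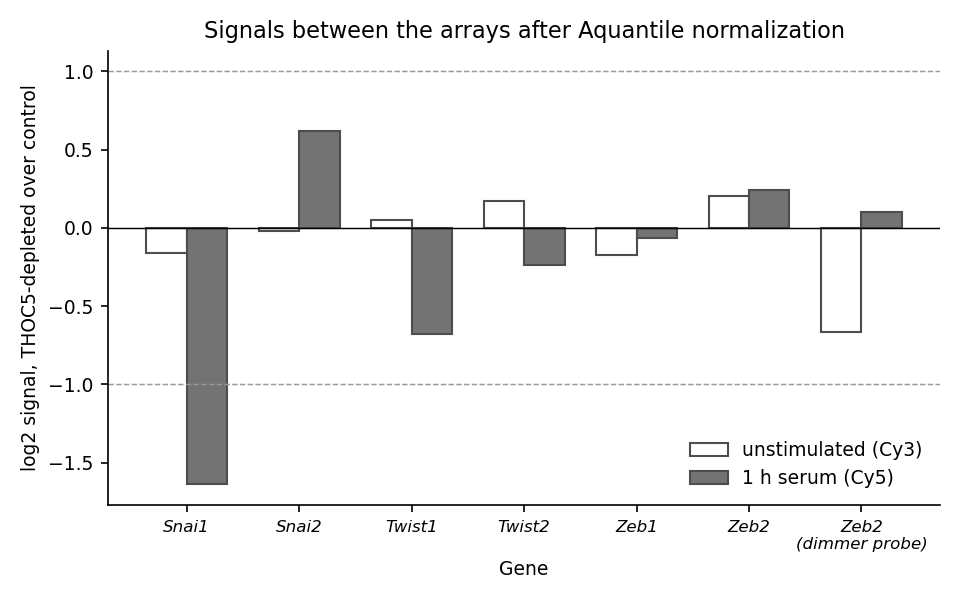
Log2 signal of each probe, THOC5-depleted over control cells, in unstimulated (white) and serum-stimulated (grey) cells after Aquantile normalization; dashed lines mark 2-fold. Snai1 reaches -1.64 in stimulated and -0.16 in unstimulated cells.

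The genes with a pattern most like Snai1 were sought over 3 values (both serum log2 ratios and the unstimulated difference) among 17238 genes. The 5 nearest were Clcf1 (ratios 5.04 and 2.10, distance 0.319 log2 units), Skil (4.79 and 2.44, distance 0.392), Noct (6.18 and 2.05, distance 0.414), Csf3 (5.76 and 1.80, distance 0.433) and Dlx2 (6.30 and 2.23, distance 0.438). Within 0.5 log2 units there were 7 genes.

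The genes around these factors were read from lists, described by counts and medians beside the shares of all genes given above. Of 17 mesenchymal genes, 1 rose 2-fold with serum in control cells, the integrin subunit Itga5 (ratio 4.36, and 1.68 in depleted cells), 0 did in depleted cells, and their median log2 ratios were -0.12 and -0.20. Of 22 epithelial genes, the class that Snail and Zeb proteins repress, 11 were measured in control cells and 10 in depleted cells, and 0 changed 2-fold with serum on either array. Cdh1, Cldn1, Cldn3, Crb3, Rab25 and St14 were above background in no channel. In unstimulated cells 10 epithelial genes could be compared between the arrays, 8 of them above and 2 below 0 in log2 depleted over control, with a median of 0.09. The desmosomal gene Dsp was the 1 gene of these past 2-fold, 2.54-fold lower in depleted cells, against 1.43% of all genes.

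Of 14 corepressors that these factors recruit, 0 changed 2-fold with serum, and 1 had responses 2-fold apart, the lysyl oxidase gene Loxl2 (ratio 1.58 in control and 0.752 in depleted cells, 2.10-fold apart). Of 12 genes of Snail protein turnover 0 were 2-fold apart in any comparison.

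The Id proteins sequester E proteins, the partners of Twist. Of 9 genes of Twist partners and Id inhibitors 7 were measured, and the 4 Id genes rose in control cells, Id1 at 27.7, Id3 at 7.98, Id4 at 4.19 and Id2 at 3.95. In depleted cells 2 rose past 2-fold (Id1 at 6.03 and Id3 at 3.37), and all 4 responses were 2-fold or more smaller, a count that became 0 with both arrays scaled to the same spread of log ratios. The other 3 measured genes of the list, the E protein genes Tcf3, Tcf4 and Tcf12, had log2 serum ratios below 0 in control cells, so no median is given for the list as a whole. In unstimulated depleted cells Id2 was 2.43-fold and Id1 2.08-fold higher, and in stimulated depleted cells Id1 was 2.21-fold and Id3 2.07-fold lower. For Id2 the log2 difference was 1.28 in unstimulated and -0.12 in stimulated cells, so its response difference lay mostly in the unstimulated channel.

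Of 20 other mesenchymal transcription factor genes 16 were measured, 4 of them raised in control cells, led by Foxc2 (6.60), Sox9 (4.61) and Foxq1 (2.30), and 0 in depleted cells. The response was 2-fold or more smaller for Foxc2 (4.41-fold) and Sox9 (2.95-fold). Between the arrays 2 of the 16 were 2-fold apart in unstimulated cells, Runx2 (2.83-fold higher in depleted cells) and Foxc1 (2.22-fold lower). In stimulated cells 3 were lower, Sox9 (2.74-fold), Foxc2 (2.53-fold) and Klf8 (2.21-fold), and Runx2 was 2.03-fold higher. Of 30 genes of upstream signals, 9 rose in control cells, led by the TGF-beta inhibitor Smad7 (16.4), the prostaglandin synthase Ptgs2 (13.8) and the cytokine Lif (13.6), and 1 fell, the PDGF receptor Pdgfra (2.09-fold). In depleted cells 5 rose, led by Ptgs2 (ratio 5.20), Lif (4.74) and Smad7 (3.28). The response was 2-fold or more smaller for 8, led by Il11 (log2 difference -2.39), Smad7 (-2.32) and Wnt11 (-2.17). In unstimulated cells 5 of the 30 genes were already 2-fold apart, 2 higher in depleted cells, against 1.39% of all genes, and 3 lower, against 1.43%, led by Il6 (2.91-fold higher), Pdgfra (2.43-fold lower) and Bmp2 (2.31-fold lower). Smad7 was 2.17-fold higher in unstimulated depleted cells and 2.31-fold lower in stimulated depleted cells, so its response difference came from both channels. In stimulated cells 8 were 2-fold or more lower, led by Il11 (6.29-fold), Wnt11 (5.25-fold) and Pdgfb (5.17-fold), and 1 was higher (Il6, 2.14-fold). With both arrays scaled to the same spread of log ratios, 0.632% of all genes had a log2 ratio lower by 1 or more in depleted cells. This signed difference also takes in falls that grew and responses that reversed. The counts became 0 for the mesenchymal genes (from 1, Itga5) and 1 for the epithelial genes (Krt8, from 0). They were 1 for the corepressors, 2 for the other transcription factors and 5 for the upstream signals (from 8). With the spike-in difference between the arrays taken off, an alternative chosen after seeing the data, 2.23% of all genes had a signed difference that low. The counts were 4 for the Id list and 1 each for the mesenchymal genes, epithelial genes and corepressors. They were 4 for the other transcription factors and 8 for the upstream signals.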

How the data were processed

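Dual-colour arrays of total RNA were analysed from the scanner text output that the authors deposited (Agilent Feature Extraction 10.7.3.1, per the submitters' processing notes). Per the file headers these intensities had the background subtracted and the dyes normalized within each array, and the deposited ratio is a log10 value, Cy5 against Cy3. The deposited series table holds the size of a log10 ratio without its sign, with medians of 0.0279 and 0.0222. Its values equalled the size of the scanner ratio within 0.0001 for 85.1% (control) and 86.3% (depleted) of features. Why the rest differed was not tested. This table served as an alternative once the scanner's sign was added. The labelling kit copies polyadenylated RNA, so a probe reads tailed transcripts. Outlier spots (239 and 234 of 43020) were left out, spots of a probe were averaged on the log2 scale, and the brightest probe stood for a gene. Between 62.1% and 64.4% of spots were well above background per channel. The 268 probes of 10 spots well above background in all 4 channels varied between spots with a median SD of 0.028 and 0.031 log2 units. Read depth does not apply to arrays. Precision was limited by having 1 array per condition and, for dim probes, by signal level. At the signal of the dimmer Zeb2 probe the spot SD was 0.059 (control) and 0.077 (depleted).

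Ratios within an array were taken from the processed signals, and signals between arrays were normalized with limma 3.58.1 (Aquantile) in R 4.3.3. Tables were made with Python 3.11.15, numpy 2.4.6 and pandas 2.3.3 and figures with matplotlib 3.10.9, and the scripts were tested on simulated data. A change was counted at 2-fold. Named genes were all members, the 5 genes nearest to Snai1, Thoc5, and up to 3 genes per list and comparison, largest first. Id2, Krt8, the E protein genes, Smad7 and Runx2 between the arrays, and listed genes above background in no channel were named after their values were seen. So were Pdgfra for serum in control cells and Il6 in stimulated cells. The members and lists were chosen with earlier results of these data known. Alternatives were other background corrections, dye normalizations, scalings, floors, filters and probe rules.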

Additional observations from a re-analysis of the deposited data

Results flagged for a closer look

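The dimmer Zeb2 probe moved in opposite directions with serum on the arrays, with log2 ratios of -0.52 (control) and 0.24 (THOC5-depleted), a difference of 0.76 log2 units. The brighter Zeb2 probe had log2 ratios of 0.04 and 0.08. With 1 array per condition the difference was not tested, and the spread between cultures is unknown.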

How the results depend on the processing

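No paired analysis was possible because there was 1 array per condition. With both arrays scaled to the same spread of log ratios, the Snai1 difference was -0.87 and 0 members had responses 2-fold apart, in place of 1. With the mean difference of the 10 spike-in probes (0.24 log2 units, from 0.15 to 0.31) taken off, an alternative chosen after seeing the data that moves the median of all genes by -0.24, the Snai1 difference was -1.72. The median log2 ratio of members in control cells, 0.26, was 0.35 with normexp and loess, 0.33 without dye normalization, 0.23 with the median over probes and 0.37 without the background filter. That last value is the ratio of Snai3 itself, the middle of 7 genes, whose probe was not well above background in any channel, so it measures no response. In depleted cells the median, 0.08, was 0.14 with normexp and loess and 0.13 without dye normalization. Beyond the one-spread scaling, the cause of these moves was not tested. Of 30 member values, 5 changed sign under some alternative, all of Zeb1 or Zeb2. The directions of Snai1, Snai2, Twist1 and Twist2 held in every alternative run, but most alternatives could not move them. Their serum ratios changed only with normexp and loess or without dye normalization. The series table, the floor, kept outlier spots, the median over probes and no background filter returned the main ratios. The Snai2 difference ran from 0.40 to 0.64, that of Twist1 from -0.98 to -0.62 and that of Twist2 from -0.65 to -0.34. Without replicate arrays the spread between cultures is unknown.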
